A study of Mus musculus with 4 samples.

Results

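The genes described here encode the antioxidant and glutathione enzymes of the cell and the pair of proteins that regulate many of them. They were chosen by name among the protein-coding rows of the expression table: the peroxiredoxins, glutathione peroxidases, glutathione S-transferases, thioredoxins, thioredoxin reductases and superoxide dismutases, together with Nfe2l2, Keap1, Nqo1, Hmox1, Gclc, Gclm, Gsr, Gss and Cat. The rule found 53 genes of 18200. RNA from polysomes, the messenger RNA that carries several ribosomes, had been sequenced from mouse ADSCs, which the series title places among mesenchymal stem cells, with no age or strain in the labels. All 4 libraries carry the genotype label WT: 2 are labelled scrambled, the control, and 2 are labelled IFIT1 knockdown, made with an shRNA to Ifit1. Replicate 1 of each group was in batch 1 and replicate 2 in batch 2. The sources used here give neither the shRNA sequence and vector nor whether replicates were separate cultures, so p-values reflect no more than the spread of 4 libraries, and that spread may be technical. Only polysome RNA was measured here, so a difference in the amount of a messenger RNA and a difference in its loading with ribosomes cannot be told apart, nor can fewer cells of a type and less RNA per cell.

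Cells remove superoxide with superoxide dismutases, which turn it into hydrogen peroxide, and remove peroxides with catalase, peroxiredoxins and glutathione peroxidases. Peroxiredoxins are recharged by thioredoxin and thioredoxin reductase, and glutathione peroxidases by glutathione and glutathione reductase, both at the cost of NADPH. The transcription factor NRF2, encoded by Nfe2l2, raises many of these genes by binding antioxidant response elements in their control regions, and KEAP1 holds NRF2 down by delivering it to a ubiquitin ligase until oxidants or electrophiles modify it. In fat, NRF2 is also known for a part in the formation of adipocytes.

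The values are FPKM, fragments scaled to gene length and library depth. Levels can be compared between genes only as far as the lengths used, which the sources do not give, are right. Whole fragment numbers, apart from a divisor common to the 4 libraries of a gene, could be recovered from the FPKM for 15872 genes. Their sums ran from 24448952 to 29825482 per library. Ifit1 was higher in libraries labelled knockdown, 13.9 and 14.8 FPKM against 1.93 and 1.91, which goes against the labels, so each direction given here compares libraries by label only, knockdown with scrambled. The Y-linked genes Ddx3y, Eif2s3y, Kdm5d and Uty, picked with their values in view, summed to 3 and 1 fragments in libraries labelled scrambled and 252 and 307 in libraries labelled knockdown. Whether both groups came from the same cells was not tested, so a difference due to the treatment and a difference in the origin of the cells cannot be told apart in any value below. Of 58 markers of cell types, 22 have no row here and were not analysed, among them Ptprc, Adgre1 and Itgam of leukocytes and Cdh5 and Kdr of endothelium. Markers of mesenchymal stromal cells summed to 41.1 to 41.7 FPKM in libraries labelled scrambled and 96.8 to 97.7 in libraries labelled knockdown, with Thy1 and Ly6a present in all 4 libraries and Nt5e and Pdgfra close to 0. Summed levels of the listed markers went from 5.76 and 5.79 to 2.72 and 2.80 FPKM for adipocytes, from 5.60 and 5.54 to 6.27 and 6.44 for leukocytes, and from 1.58 and 1.14 to 5.75 and 5.86 for epithelium. For endothelium they went from 1.69 and 1.63 to 4.70 and 4.47 FPKM, nearly all of it Egfl7. Nearly all of the leukocyte sum was Cd14, at 5.16 and 5.14 FPKM in libraries labelled scrambled and 5.85 and 5.99 in libraries labelled knockdown. The higher epithelium sum came from the keratins Krt8, from 0.275 and 0.283 to 2.46 and 2.65 FPKM, and Krt18, from 0.466 and 0.475 to 2.84 and 2.94. Epcam and Cdh1 of the same list were close to 0 in all 4 libraries. The part of these markers in the results below was not tested.

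The promoters of 4 genes are shown because their messenger RNAs moved in opposite directions and each holds the letters of an antioxidant response element. The letters searched were TGACNNNGC on both strands, in RefSeq windows of 300 bases, from 250 before to 50 after each gene's start (GRCm38.p6). Of the 53 genes, 45 have a window and 9 of them (20.0%) hold a match in any window. The share was 17.0% of the 7041 tested genes with a window and 14.0% of all 27025 genes with one. Among the 13 genes that fell and have a window, 3 hold a match (Gclm, Nfe2l2 and Txnrd1). Among the 13 that rose, 4 do (Gstm5, Mgst1, Prdx1 and Sod1), of which Mgst1 was tested only because of its level in libraries labelled knockdown. The match begins 134 bases before the start in Gclm, 92 in Txnrd1, 133 in Prdx1 and 56 in Sod1, and is written in capitals in the 250 bases before each start. A match is a run of letters and not a measured binding site. No match was found for Nqo1, Hmox1, Gclc or Gsr. Bases outside the windows were not searched, and 8 genes of the set have no window. The counts therefore do not show how far the genes that fell or rose are linked to NRF2.
Gclm, chr3:122245307-122245556, strand +: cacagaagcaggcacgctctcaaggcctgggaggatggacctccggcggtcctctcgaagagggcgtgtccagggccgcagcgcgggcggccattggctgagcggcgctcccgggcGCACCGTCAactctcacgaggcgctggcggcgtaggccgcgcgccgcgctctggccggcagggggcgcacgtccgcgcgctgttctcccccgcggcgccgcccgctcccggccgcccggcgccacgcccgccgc
Txnrd1, chr10:82858956-82859205, strand +: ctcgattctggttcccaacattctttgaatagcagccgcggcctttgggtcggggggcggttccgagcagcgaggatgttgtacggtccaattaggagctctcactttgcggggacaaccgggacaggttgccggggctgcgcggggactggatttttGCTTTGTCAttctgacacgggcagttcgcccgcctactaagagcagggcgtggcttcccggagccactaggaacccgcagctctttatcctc
Prdx1, chr4:116685349-116685598, strand +: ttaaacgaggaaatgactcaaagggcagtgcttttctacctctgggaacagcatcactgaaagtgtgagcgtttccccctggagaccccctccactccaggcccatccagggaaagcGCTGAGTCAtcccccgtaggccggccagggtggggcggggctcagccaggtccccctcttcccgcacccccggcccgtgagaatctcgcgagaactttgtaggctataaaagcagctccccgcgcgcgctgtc
Sod1, chr16:90220512-90220761, strand +: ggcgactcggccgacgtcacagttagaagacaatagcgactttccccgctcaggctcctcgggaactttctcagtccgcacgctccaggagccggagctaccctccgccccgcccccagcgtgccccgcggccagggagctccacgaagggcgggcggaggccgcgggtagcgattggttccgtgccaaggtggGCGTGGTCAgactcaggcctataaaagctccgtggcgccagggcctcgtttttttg

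In libraries labelled knockdown, the enzymes that make and recycle glutathione, thioredoxin reductase 1, NQO1 and NRF2 itself were lower, by 1.64-fold to 3.06-fold, while most glutathione peroxidases and peroxiredoxins were higher. Of the 41 genes with a mean of at least 1 FPKM, which were the ones tested, 15 rose, 16 fell and 10 did not pass (limma on log2(FPKM + 1), adjusted p under 0.05). Over all 8750 genes tested, 27.4% rose and 41.2% fell, 68.7% in all, so the 75.6% of this set that passed is near the background. With a log2 change of at least 0.5 as well, chosen after seeing the data, 9 genes of the set rose and 13 fell, against 16.0% and 24.9% of all genes tested. The median log2 change was -0.02 in the set and -0.02 over all genes tested. Of the same 41 genes, 35 (85.4%) had groups that did not overlap, against 74.5% of all genes tested. Gstk1 and Mgst1 reached the filter only through libraries labelled knockdown, so that they differed follows in part from the filter. The 12 genes below it were Gpx3, Sod3, Gsta2, Gsta3, Gstm3, Gstm6, Gstm7, Gsto2, Gstp3, Gstt2, Gstt4 and Mgst2, none above 1.45 FPKM in any library. Median centring of the libraries shifted the median over all genes tested from -0.02 to 0.15, so small changes depend on the scaling. Replicates agreed more closely than counting error would give: the median SE over all genes tested was 0.0208, against 0.0382 from counting. P-values can therefore be too small and intervals too narrow. Close replicates in the values below do not measure the spread between cultures.

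**Figure D1:**
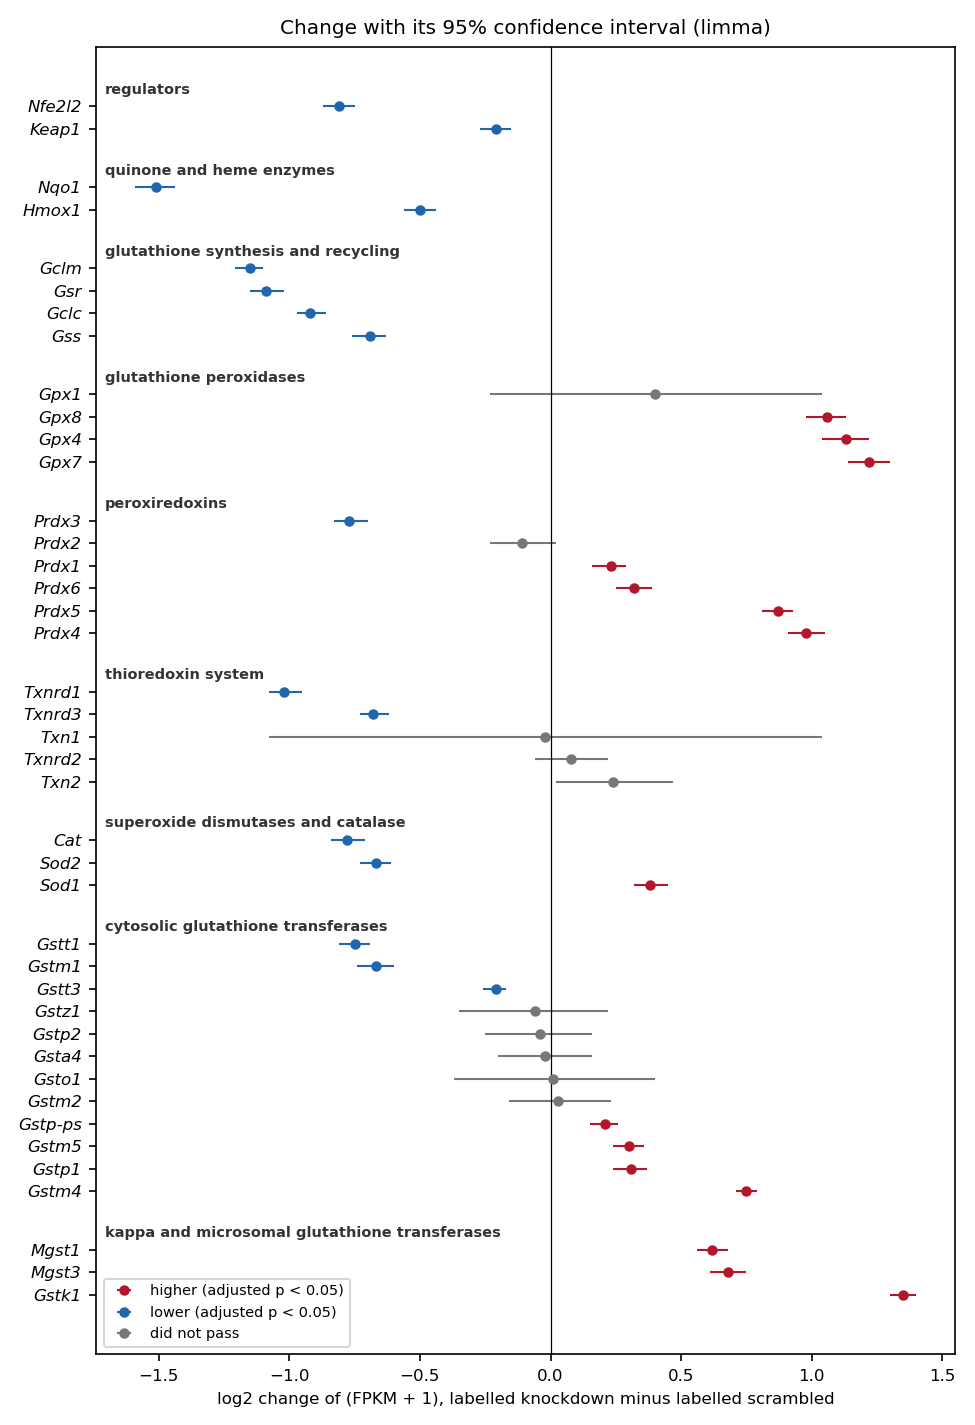
Log2 change of (FPKM + 1), libraries labelled knockdown minus libraries labelled scrambled, for the 41 tested genes by role. Points are limma estimates with 95% confidence intervals (n = 2 per group), red for genes that rose, blue for genes that fell and grey for genes that did not pass. The 4 genes of glutathione synthesis and recycling all lie below 0 and 3 of the 4 glutathione peroxidases lie near or above 1.

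Both regulators were lower. Nfe2l2 (Entrez 18024), the gene of NRF2, had 20.3 and 20.1 FPKM in libraries labelled scrambled and 11.0 and 11.2 in libraries labelled knockdown. The groups were well apart, with means of 20.2 ± 0.106 and 11.1 ± 0.147 (SD, n = 2), a 1.82-fold fall (log2 -0.81, SE 0.018, limma adjusted p = 1.6e-04). Keap1 (Entrez 50868), its repressor, changed far less, from 24.3 and 24.1 to 20.7 and 21.1 FPKM (log2 -0.21, limma adjusted p = 0.0025). The call of Keap1 did not hold after median centring (log2 -0.03, limma adjusted p = 0.56).

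NQO1, which reduces quinones by a transfer that avoids radical intermediates, and heme oxygenase 1, which opens the heme ring, are the textbook readouts of NRF2. Nqo1 (Entrez 18104) had 29.1 and 28.1 FPKM in libraries labelled scrambled and 9.32 and 9.41 in libraries labelled knockdown. This was the largest fall among the tested genes of the set, 3.06-fold (log2 -1.51, SE 0.024, limma adjusted p = 1.6e-04), from 3139 and 3689 fragments to 1232 and 1141. Hmox1 (Entrez 15368) went from 52.5 and 52.3 to 36.4 and 37.1 FPKM. Its fall was smaller, 1.42-fold (log2 -0.50, limma adjusted p = 2.7e-04), and the groups did not overlap.

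All 4 genes of glutathione synthesis and recycling fell. Gclc (Entrez 14629), the catalytic subunit of glutamate-cysteine ligase and the rate-limiting step of the pathway, went from 9.41 and 9.33 to 4.45 and 4.55 FPKM, 2.08-fold lower. Gclm (Entrez 14630), the modifier subunit that raises the activity of that enzyme, went from 50.9 in both libraries to 22.1 and 22.5 FPKM, 2.28-fold lower (log2 -1.15, SE 0.019, limma adjusted p = 1.6e-04). The FPKM of Gclm was thus several times that of Gclc in all 4 libraries, a ratio that depends on the lengths behind the FPKM. Gss (Entrez 14854), glutathione synthetase, which adds glycine in the second step, went from 52.2 and 51.8 to 31.5 and 32.1 FPKM (log2 -0.69, limma adjusted p = 1.8e-04). Gsr (Entrez 14782), glutathione reductase, went from 72.6 and 72.2 to 33.2 and 33.9 FPKM (log2 -1.09, limma adjusted p = 1.6e-04). The summed level of the 4 genes was 185 and 184 FPKM in libraries labelled scrambled and 91.3 and 93.1 in libraries labelled knockdown, with little spread inside either group.

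Glutathione peroxidases went the other way. Gpx4 (Entrez 625249), a selenoprotein that reduces lipid peroxides in membranes and protects cells from ferroptosis, had 620 and 603 FPKM in libraries labelled scrambled and 1355 and 1321 in libraries labelled knockdown. It rose 2.19-fold (log2 1.13, SE 0.028, limma adjusted p = 1.6e-04) and went from 7.5% and 7.0% to 13.1% of the summed FPKM of the 53 genes. Gpx7 (Entrez 67305) and Gpx8 (Entrez 69590), peroxidases of the endoplasmic reticulum that carry cysteine in place of selenocysteine, rose 2.59-fold and 2.17-fold. Gpx7 went from 5.37 and 5.22 to 13.9 and 13.5 FPKM and Gpx8 from 12.5 and 12.2 to 27.1 and 26.5.

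Gpx1 (Entrez 14775), the abundant selenoprotein of the cytosol and mitochondria, had 542 and 687 FPKM in libraries labelled scrambled and 915 and 714 in libraries labelled knockdown. The groups did not overlap, but the spread inside each was wide, and Gpx1 did not pass (log2 0.40, 95% interval -0.23 to 1.04, limma adjusted p = 0.19). The difference was 0.75 in batch 1 and 0.05 in batch 2. After median centring Gpx1 passed (log2 0.58, limma adjusted p = 0.043). Gpx3, the secreted plasma form, was below the filter at 0.0192, 0.0948, 0.204 and 0.0854 FPKM.

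**Figure D2:**
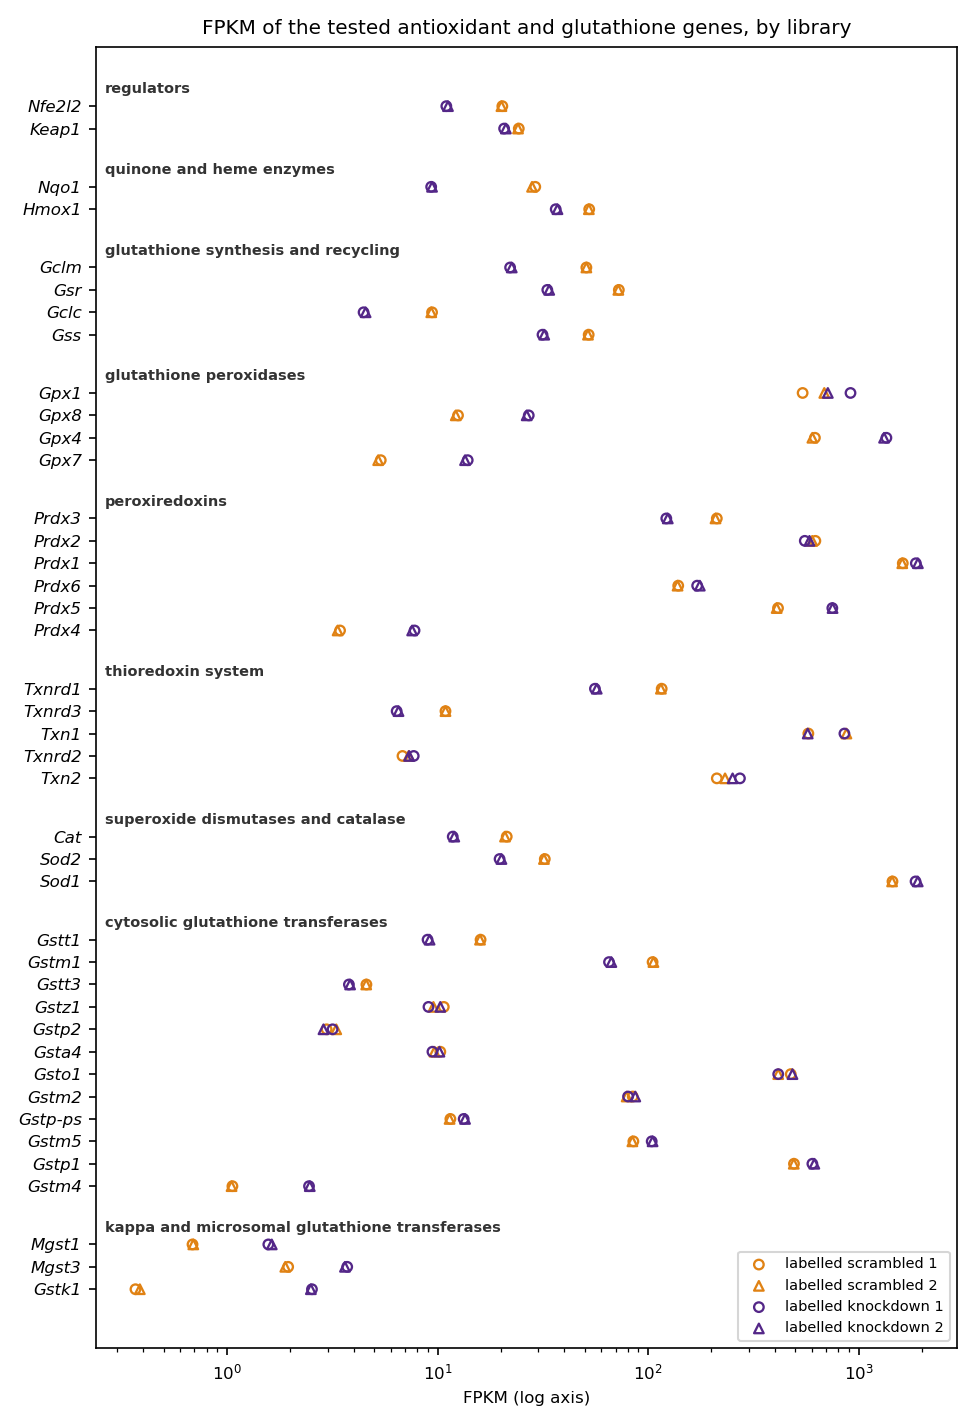
FPKM of the 41 tested genes on a log axis, with a symbol for each library (orange, labelled scrambled; violet, labelled knockdown; circles, replicate 1; triangles, replicate 2). For most genes the replicates of a group lie on each other, while Txn1 and Gpx1 spread widely within both groups.

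Among the 6 peroxiredoxins, 4 rose, 1 fell and 1 did not pass. Prdx1 (Entrez 18477), the main cytosolic form, was the most abundant gene of the set in libraries labelled scrambled, at 1621 and 1612 FPKM, and had 1870 and 1912 in libraries labelled knockdown. Its rise was small, 1.17-fold (log2 0.23, limma adjusted p = 0.0027), and did not pass after quantile normalization (limma adjusted p = 0.11). Prdx2 (Entrez 21672), also cytosolic, had 623 and 602 against 555 and 584 FPKM and did not pass (log2 -0.11, 95% interval -0.23 to 0.02). It passed after quantile normalization (log2 -0.28, limma adjusted p = 0.03).

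The mitochondrial and reticulum forms differed most. Prdx3 (Entrez 11757), found in the mitochondrial matrix, went from 212 and 209 to 122 and 124 FPKM, 1.71-fold lower (log2 -0.77, SE 0.020, limma adjusted p = 1.7e-04). Prdx5 (Entrez 54683), present in mitochondria, peroxisomes and cytosol, went from 414 and 408 to 750 and 752 FPKM, 1.83-fold higher (log2 0.87, SE 0.019, limma adjusted p = 1.6e-04). Those peroxidases of mitochondria therefore moved in opposite directions, each with replicates close together. Prdx4 (Entrez 53381), the peroxiredoxin of the endoplasmic reticulum, rose 2.26-fold, from 3.44 and 3.35 to 7.77 and 7.57 FPKM. All 3 tested peroxidases that reside in the reticulum (Prdx4, Gpx7 and Gpx8), grouped after their values were seen, rose. Prdx6 (Entrez 11758), which uses glutathione in place of thioredoxin, rose 1.25-fold, from 139 and 138 to 171 and 176 FPKM.

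Of the 5 genes of the thioredoxin system, 2 reductases fell and 3 genes did not pass. Txnrd1 (Entrez 50493), the cytosolic selenoprotein that recharges thioredoxin, had 116 and 115 FPKM in libraries labelled scrambled and 55.9 and 57.0 in libraries labelled knockdown. It fell 2.04-fold (log2 -1.02, SE 0.020, limma adjusted p = 1.6e-04). Txnrd3 (Entrez 232223), a reductase with an added glutaredoxin domain, went from 10.9 in both libraries to 6.39 and 6.52 FPKM (log2 -0.68, limma adjusted p = 1.7e-04). The mitochondrial reductase Txnrd2 (Entrez 26462) did not pass, at 6.81 and 7.29 against 7.70 and 7.32 FPKM (log2 0.08, 95% interval -0.06 to 0.22), but did after median centring (log2 0.25, limma adjusted p = 0.0083) and quantile normalization (log2 0.25, limma adjusted p = 0.0079). Txn2 (Entrez 56551), the mitochondrial thioredoxin, did not pass at 212 and 232 against 273 and 252 FPKM (log2 0.24, limma adjusted p = 0.06). After median centring it did (log2 0.41, limma adjusted p = 0.0053).

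Txn1 (Entrez 22166), cytosolic thioredoxin, had 577 and 875 FPKM in libraries labelled scrambled 1 and 2 and 856 and 573 in libraries labelled knockdown 1 and 2. Replicate 1 of one group therefore matched replicate 2 of the other, and the replicates inside a group differed far more than the groups. The group difference was -0.02 on the log2 scale, with a 95% interval from -1.08 to 1.04 that allows a change of either sign (limma adjusted p = 0.99). It was 0.57 in batch 1 and -0.61 in batch 2. These levels rest on 19541, 35947, 35477 and 21801 fragments, so counting error is small beside their spread.

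The same crossed order appears across the table. Among 8750 genes tested, 1526 (17.4%) had replicates at least 1.2-fold apart in both groups and in opposite directions, and 7 in the same direction. In 1089 of the 1526 each library lay within 5% of the other group's library of the other number. In the set the crossed order at this size was found for Txn1 and Gpx1, 2 of 41 genes (4.88%), with Txn1 within 5%. At smaller sizes the order also crossed in Gsto1, Gstz1, Gsta4, Gstm2, Gstp2, Prdx2, Txn2 and Txnrd2, which did not pass. It crossed as well in genes that passed, such as Nfe2l2. Replicate differences of both groups correlated at -0.83 across all genes tested and at -0.97 across the tested genes of the set (Pearson). Genes are not independent replicates. Genes that follow the crossed order at the 1.2-fold size have a wide interval, so their missing the threshold does not show that the groups act alike.

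**Figure D3:**
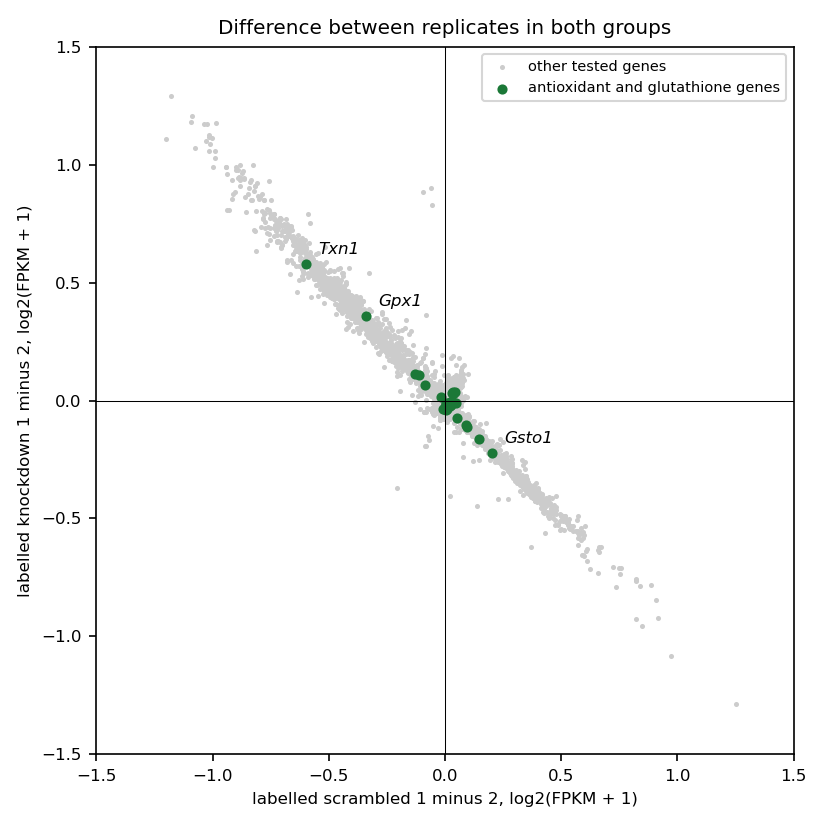
Replicate 1 minus replicate 2 on the log2(FPKM + 1) scale in libraries labelled scrambled (horizontal) and labelled knockdown (vertical), for the tested genes of the set (green) and the other tested genes (grey). The points lie along a falling diagonal, with Txn1 and Gpx1 at the upper left. The axes end at 1.5 on either side, and 6 other genes lie outside.

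The tested superoxide dismutases moved in opposite directions. Sod1 (Entrez 20655), the copper and zinc enzyme of the cytosol, had 1448 and 1442 FPKM in libraries labelled scrambled and 1864 and 1909 in libraries labelled knockdown, a 1.31-fold rise (log2 0.38, SE 0.022, limma adjusted p = 6.7e-04). Sod2 (Entrez 20656), the manganese enzyme of the mitochondrial matrix, went from 32.3 and 32.0 to 19.7 and 20.1 FPKM, a 1.62-fold fall (log2 -0.67, limma adjusted p = 1.8e-04). Catalase, which destroys hydrogen peroxide in peroxisomes, fell as well: Cat (Entrez 12359) went from 21.3 and 20.9 to 11.8 and 12.0 FPKM (log2 -0.78, limma adjusted p = 1.7e-04). None of the 3 genes had overlapping groups, which also holds for 74.5% of all genes tested. Sod3, the extracellular form, was listed at 0.0992 FPKM or less.

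Glutathione S-transferases attach glutathione to electrophiles. Of 12 tested cytosolic members of 21, 4 rose, 3 fell and 5 did not pass, with a median log2 change of -0.00. Gstp1 (Entrez 14870) of the pi class, the most abundant gene here with Gsto1, rose from 493 and 492 to 603 and 616 FPKM (log2 0.31, limma adjusted p = 0.001), but did not pass after quantile normalization (limma adjusted p = 0.077). Gstp-ps, a pi-class row described as a pseudogene and listed as protein coding, rose from 11.5 and 11.4 to 13.3 and 13.5 FPKM, and Gstp2 did not pass at 2.97 and 3.30 against 3.17 and 2.87. These rows are near copies, the sources used here do not give how reads that match several genes were counted, and the split between them is uncertain. The same holds for the mu class and for genes with many pseudogenes such as Prdx1, Gpx4, Sod1 and Txn1.

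The mu class moved in both directions. Gstm1 (Entrez 14862) fell from 105 and 106 to 65.2 and 66.9 FPKM (log2 -0.67, limma adjusted p = 2.0e-04). Gstm5 (Entrez 14866) rose from 85.1 and 84.2 to 104 and 105 FPKM (log2 0.30, limma adjusted p = 9.3e-04), and Gstm4 from 1.06 and 1.05 to 2.45 and 2.47, on 19, 23, 54 and 50 fragments. Gstm2 lay between them with overlapping groups, at 84.5 and 79.1 against 80.3 and 86.9 FPKM (log2 0.03, 95% interval -0.16 to 0.23). Gstm7, Gstm6 and Gstm3 were below the filter, with 0.521 to 0.908 FPKM for Gstm7.

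Theta-class Gstt1 (Entrez 14871) fell 1.76-fold, from 16.0 and 15.9 to 8.96 and 9.16 FPKM. Gstt3 fell from 4.59 and 4.58 to 3.79 and 3.84 FPKM (log2 -0.21, limma adjusted p = 0.0012). That smaller change did not pass after median centring (limma adjusted p = 0.42), after quantile normalization (0.2) or with counting error as the smallest standard error (0.075). Gsto1 (Entrez 14873) of the omega class, which also reduces dehydroascorbate, had 476 and 415 against 415 and 485 FPKM, and its groups overlapped (log2 0.01, 95% interval -0.37 to 0.40). Gsta4, which handles the lipid aldehyde 4-hydroxynonenal, had 10.3 and 9.66 against 9.45 and 10.2 FPKM, and Gstz1, the maleylacetoacetate isomerase of tyrosine breakdown, 10.7 and 9.55 against 9.05 and 10.3. Neither passed, and both had overlapping groups. Gsto2, below the filter, had 17 and 22 fragments in libraries labelled scrambled and 85 and 91 in libraries labelled knockdown.

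The kappa and microsomal transferases were at low levels. Gstk1 and Mgst1 passed the filter only through libraries labelled knockdown, so their values are a description, and Mgst3 rose. Gstk1 (Entrez 76263), found in mitochondria and peroxisomes, had 0.367 and 0.385 FPKM in libraries labelled scrambled and 2.53 and 2.50 in libraries labelled knockdown, on 11, 14, 93 and 84 fragments. The ratio of the means was 6.69, against a log2 difference of (FPKM + 1) of 1.35, a scale that understates a change from so low a level. Mgst1 and Mgst3, membrane enzymes that also reduce lipid peroxides, went from 0.685 and 0.691 to 1.57 and 1.63 FPKM and from 1.95 and 1.89 to 3.72 and 3.63. Mgst2 followed the crossed order of Txn1, at 0.299 and 0.698 against 0.719 and 0.281 FPKM, below the filter.

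Abundance in the set was concentrated in a few genes. The 4 most abundant held 52.4% and 53.9% of the summed FPKM of the 53 genes in libraries labelled scrambled and 57.8% and 58.6% in libraries labelled knockdown. Prdx1 alone held 18.0% to 19.7% of it and Sod1 16.8% to 19.0%. The sum over the set was 8236 and 8558 FPKM against 10378 and 10063, or 1.38% and 1.39% of all FPKM against 1.48% in both libraries labelled knockdown. The total of the set was thus a little higher where Nfe2l2, Nqo1 and the glutathione synthesis genes were lower.

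Transcript length differed between the genes that rose and fell. The longest annotated transcript (GENCODE M21) had a median of 1167 bases in the 15 genes that rose and 2643 in the 16 that fell, and of 2316 and 3834 bases in all tested genes that rose and fell. Spearman's rho between length and log2 change was -0.48 across the 41 genes and -0.40 across 8456 tested genes, a description across genes of the same libraries. The sources used here do not give the lengths behind the FPKM, which can differ from those listed. Within a library, genes of equal length should have equal fragments per FPKM. The recovered fragments can fall short by a divisor common to the 4 libraries of a gene, so the numbers below are a rough guide. In the library labelled scrambled 1, Nqo1, listed at 1553 bases, had 3139 fragments at 29.1 FPKM. Hmox1, listed at 1569, had 2663 at 52.5. Sod1, listed at 3970, had 29706 at 1448, and Keap1, listed at 3614, had 3496 at 24.3. So whether Nqo1, which fell most, and Sod1 depart from the length trend cannot be read from these lengths. With the length trend of all genes taken out, chosen after seeing the data, 13 genes of the set rose and 20 fell. Keap1 (log2 0.01, limma adjusted p = 0.84), Gstm5 (limma adjusted p = 1) and Gstp1 (log2 -0.07, limma adjusted p = 0.051) then did not pass, and Gstp-ps turned to a fall (log2 -0.22, limma adjusted p = 0.002). Genes that had not passed and did after this step were Gstp2 (log2 -0.43), Gsta4 (-0.36), Gstm2 (-0.27), Prdx2 (-0.23) and Txnrd2 (0.17), with limma adjusted p from 0.011 to 0.044. This step used the listed lengths. Gstp-ps, listed at 631 bases, had 1644 fragments at 11.5 FPKM in the library labelled scrambled 1, and Gstp1, listed at 821, had 5910 at 493. The turn of Gstp-ps therefore rests on a listed length that may not be that of its FPKM.

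**Figure D4:**
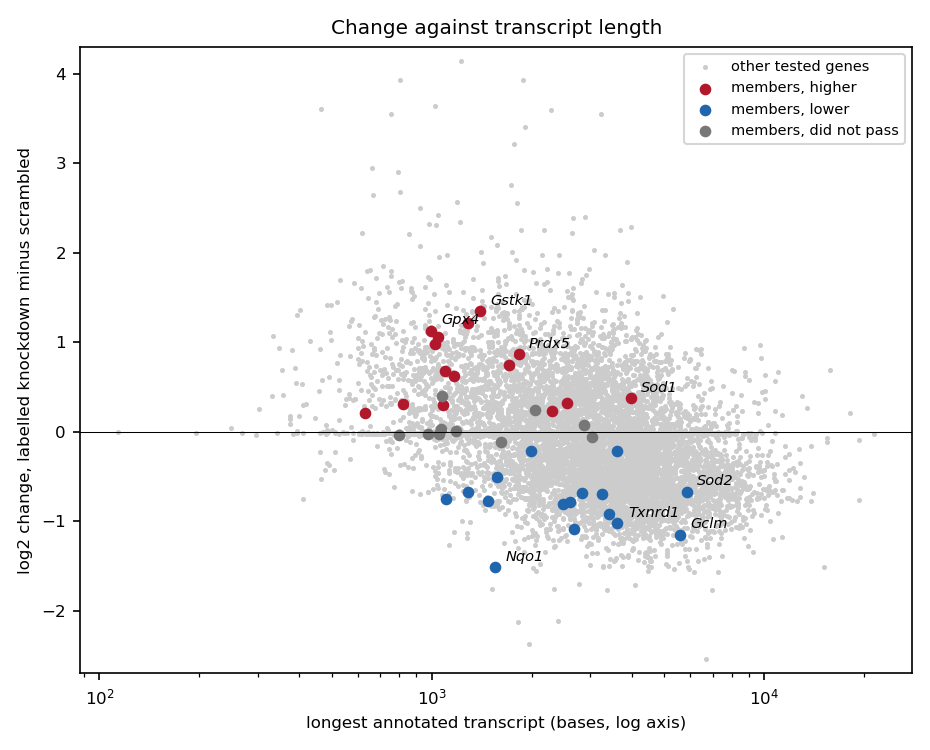
Log2 change (vertical) against the longest annotated transcript in bases (horizontal, log axis) for the tested genes of the set, coloured by call, and the other tested genes (grey). Genes of the set that rose lie mostly at 631 to 2558 bases, with Sod1 at 3970, and those that fell reach 5861 bases.

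Selenocysteine, the residue at the active site of thioredoxin reductases and of several glutathione peroxidases, is inserted by a dedicated machinery. Of the 5 tested selenoproteins in the set, Gpx4 rose, Txnrd1 and Txnrd3 fell, and Gpx1 and Txnrd2 did not pass. Of 8 tested genes listed under selenocysteine insertion, not all of which act in the insertion itself, 4 rose, 3 fell and 1 did not pass. Their median log2 change was 0.09. Secisbp2, which binds the insertion element, fell 2.00-fold and Sephs1 1.65-fold, while Pstk, Trnau1ap and Scly rose 1.67-fold, 1.61-fold and 1.56-fold. Sephs2 rose 1.16-fold (log2 0.21, limma adjusted p = 0.0032). Of 10 other selenoproteins tested, 4 rose and 6 did not pass. Those that rose include the small proteins Selenow, Selenom and Selenof, 3.09-fold, 2.18-fold and 1.95-fold higher. Of those that did not pass, Selenoh, Selenon, Selenos and Selenot had the crossed order, so this does not show that they were unchanged. Selenoh had 414 and 652 against 649 and 406 FPKM (log2 interval -1.22 to 1.18). Over all genes tested 27.4% rose and 41.2% fell, and the difference of these short lists from those shares was not tested.

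Other genes of the pathway, taken from lists of 113 genes, gave 36 that rose, 22 that fell and 30 that did not pass among 88 tested, with a median log2 change of 0.01. That is 40.9% higher and 25% lower, 65.9% in all, beside 27.4%, 41.2% and 68.7% of all genes tested, and the shorter lists below are to be read against the same shares. Among 11 tested regulators of NRF2, 2 rose, 4 fell and 5 did not pass. Cul3, the scaffold of the ligase that KEAP1 serves, fell from 15.9 and 15.8 to 9.57 and 9.78 FPKM. Btrc and Gsk3b, parts of another route that destroys NRF2, fell 2.01-fold and 2.08-fold. Maff, a small MAF partner of NRF2, rose from 23.5 and 23.4 to 65.0 and 65.9 FPKM, 2.79-fold.

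Of 18 tested partners of thioredoxin and glutaredoxin, 11 rose (61.1%), 4 fell (22.2%) and 3 did not pass, with a median log2 change of 0.30. The shares over all genes tested were 27.4% and 41.2%, and the difference from them was not tested. Txnip, which binds and inhibits thioredoxin, rose from 17.1 and 17.2 to 30.2 and 31.2 FPKM. Srxn1, which repairs overoxidized peroxiredoxins and is a known NRF2 target, fell from 25.9 and 26.2 to 16.9 and 17.4 FPKM (log2 -0.57, limma adjusted p = 3.1e-04). Glrx2, Txndc12, Prxl2c and Msrb1 rose by 1.42-fold to 1.64-fold, while Msrb3, a methionine sulfoxide reductase, fell 2.06-fold and the p53-induced Sesn1 2.41-fold. Prxl2b went from 0.0383 and 0.0631 to 8.42 and 8.25 FPKM.

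Cysteine supply and glutathione turnover had 5 genes that rose, 3 that fell and 5 that did not pass among 13 tested. Slc7a11, the cystine carrier that feeds glutathione synthesis, was below the filter in all 4 libraries, at 0.192 and 0.188 against 0.405 and 0.380 FPKM. Chac1 and Ggct, which break glutathione and its products down, rose 1.54-fold and 1.87-fold, and Oplah, the next enzyme of that cycle, went from 0.436 and 0.441 to 1.67 and 1.79 FPKM. Slc25a39, the mitochondrial glutathione carrier, rose from 43.0 and 41.3 to 109 and 104 FPKM (log2 1.32, limma adjusted p = 1.9e-04). Esd, a glutathione-dependent hydrolase, and Gstcd fell 1.71-fold and 1.66-fold.

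NADPH supply was split, with 4 genes that rose, 3 that fell and 3 that did not pass of 10. G6pdx, the entry enzyme of the pentose phosphate pathway, fell from 61.8 and 59.6 to 33.8 FPKM in both libraries, and malic enzyme Me1 from 41.4 and 40.9 to 25.6 and 26.0. The next enzyme of that pathway, Pgls, rose from 114 and 112 to 254 and 252 FPKM, and Tkt and Nadk rose 1.57-fold and 1.83-fold. Pgd had the crossed order, at 173 and 122 against 119 and 170 FPKM.

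For heme breakdown and iron storage, 2 genes rose, 2 fell and 3 did not pass of 7 tested. Ftl1, the ferritin light chain, rose from 2603 and 2543 to 4806 and 4757 FPKM (log2 0.89, limma adjusted p = 1.7e-04), and Blvrb, a biliverdin reductase, 2.19-fold. Fth1, the heavy chain, had the crossed order, at 365 and 544 against 537 and 360 FPKM (log2 interval -1.06 to 1.02), so the chains of ferritin cannot be compared here. Of 7 tested detoxification enzymes linked to NRF2, 2 rose, 3 fell and 2 did not pass. Nqo2, Ugdh and Osgin1 fell 1.81-fold, 1.84-fold and 1.68-fold, and Cbr3 and Ephx1 rose 2.14-fold and 2.95-fold. Of 4 tested genes of superoxide sources and copper delivery, 2 rose and 2 did not pass. Cyba, the membrane subunit of NADPH oxidases, rose 2.52-fold, from 17.3 and 16.5 to 43.8 and 41.5 FPKM. Of the genes named outside the set, Prxl2b, Oplah and Ephx1 passed the filter only through libraries labelled knockdown.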

How the data were processed

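The 4 libraries hold polysome RNA of mouse ADSCs, 2 for each label. As the labels' protocols state, messenger RNA was captured on beads, fragmented by heat and copied to cDNA. The values used are FPKM computed by the authors, as the labels name them. The submitters' processing notes name GRCm38, mm10 and GRCm39 with no role, and the sources used here do not give the aligner, counter, annotation or strandedness. All 4 value columns were used. Summed FPKM ran from 598188 to 701936.

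Members were found by symbol, and members and lists were chosen with earlier results of these data known. Genes with a mean of at least 1 FPKM (8750 of 18200) were tested on log2(FPKM + 1) with limma 3.58.1 in R 4.3.3 (trend, two-sided, Benjamini-Hochberg over all genes tested, threshold 0.05), without a batch term. Every tested member was named. Of 9 pathway lists, genes past the threshold were named where the log2 change reached 0.5, and Slc7a11, Txnip, Srxn1, G6pdx, Fth1 and Ftl1 whatever their values, and other genes were named after their values were seen. Whole fragments were recovered from FPKM ratios for 99.3% of the genes tested, apart from a common divisor (relative tolerance 3e-08, numbers up to 60000). They give depth, counting error and a rough comparison of fragments per FPKM with the listed lengths. The recovery and the limma fit were tested on simulated data. Replicate numbers equal the labelled batch, which pairs the libraries, but replicate differences correlated at -0.83 between groups. The median SE, 0.0208, was below the median counting SE, 0.0382, so p-values can be too small. Alternatives were pseudocount, filters, scalings, batch as a block, a counting-error floor and leaving out each library. Promoters come from RefSeq and lengths from GENCODE M21. Tables and plots used Python 3.11.15, pandas 2.3.3, numpy 2.4.6 and matplotlib 3.10.9.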

Additional observations from a re-analysis of the deposited data

How the results depend on the processing

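Of the 31 calls in the set, 25 kept their direction and passed under each of 13 alternatives in which the gene was tested, or 27 with the length trend left out. Of the 25, 21 were tested in all 13, while Gstk1, Gstm4, Mgst1 and Mgst3 were not tested at a mean of at least 5 FPKM. Gstk1 and Mgst1, counted among the 31 and the 25, reached the filter only through libraries labelled knockdown, so their calls follow in part from the filter. Leaving out each library in turn gave 15 genes higher and 16 lower in the set every time, 33 to 35 and 21 to 22 of the other pathway genes, and 2187 to 2283 and 3432 to 3460 of all genes. With the batch as a replicate block the set gave 15 higher and 16 lower and all genes 2205 and 3417, and no named gene changed its call. A crossed pairing, added after seeing the data, gave 18 and 19 in the set and 2962 and 4282 over all genes. Without a filter 3819 genes were higher. With a mean of at least 5 FPKM 14 other pathway genes were lower, and 1583 and 2213 of all genes were higher and lower. These filters test other numbers of genes. A log2 change of at least 0.5, added after seeing the data, left 9 genes of the set higher, and 1400 and 2175 of all genes higher and lower. Median centring moved the set to 18 higher and 14 lower and all genes to 2833 and 3040. It turned the log2 change of Prdx2 to 0.07, Txn1, Gsta4 and Fth1 to 0.15, Gstp2 to 0.13 and Gstz1 to 0.11. Quantile normalization turned Gsta4 to 0.13, Gstm2 to -0.01, Gsto1 to -0.19, Gstp2 to 0.07 and Gstz1 to 0.09. Removing the length trend, added after seeing the data, turned Keap1 to 0.01, Gstm2 to -0.27, Gsto1 to -0.25, Gstp-ps to -0.22, Gstp1 to -0.07 and Gstz1 to 0.06. Of the genes that turned sign, Keap1, Gstp-ps and Gstp1 had passed before, and the cause was not tested. The length trend used listed lengths, which can differ from those behind the FPKM. Leaving out 1 library moved the log2 change of genes that did not pass from -0.32 to 0.28 for Txn1, -0.31 to 0.27 for Fth1, -0.07 to 0.03 for Gsta4, -0.03 to 0.09 for Gstm2, -0.10 to 0.12 for Gsto1, -0.10 to 0.01 for Gstp2 and -0.14 to 0.02 for Gstz1. Counting error limits the genes with few fragments, such as Gstk1 with 11 and 14 in libraries labelled scrambled.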
